A study of Arabidopsis thaliana with 9 samples.

Results

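The genes described here encode pentatricopeptide repeat (PPR) proteins that are named in Arabidopsis thaliana as factors of RNA editing in chloroplasts and mitochondria. They are 44 of the 29420 genes in the deposited count table, chosen by their locus identifiers: 17 act on plastid transcripts and 27 on mitochondrial transcripts, with AEF1, which serves both organelles, placed with the plastid factors. PolyA RNA was sequenced from whole 10-day-old seedlings of the Col ecotype, grown on agar plates in long days, with no treatment beyond cold at sowing. There were 3 genotypes with 3 biological replicates each: WT, the hda9-1 mutant of the histone deacetylase gene HDA9, and the pwr-2 mutant of POWERDRESS (PWR), which encodes a SANT-domain protein. The series title states that the PWR and HDA9 proteins interact, and the question here is how the factors' transcripts changed in either mutant and whether the mutants differed. Each mutant was represented by 1 allele. In whole seedlings, fewer cells of a type and less RNA per cell cannot be told apart.

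In plant organelles, RNA editing converts particular cytidines of a transcript into uridines. Each site is recognised by a nuclear-encoded PPR protein of the PLS class, whose repeats bind the RNA just upstream of the edited base. Many of these proteins end in a DYW domain, which carries the deaminase activity and is named after its last residues, aspartate, tyrosine and tryptophan. Others lack the domain and work with a DYW protein supplied in trans and with small cofactors such as MORF proteins. Loss of one factor usually abolishes editing at a few sites, often in ndh genes of the plastid NADH dehydrogenase-like complex or nad genes of mitochondrial complex I. The libraries count transcripts of the factors themselves. The transcripts they edit are encoded in the organelles and are not analysed here, so editing itself was not measured.

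The last codons of the coding sequence show how the members differ in this end, and 8 are printed with their last 27 bases, read from RefSeq annotation of TAIR10.1. They were picked to show each kind of end among members described below. Capitals mark the codons of an aspartate, any residue, tryptophan tripeptide directly before the stop codon. CRR22 and MEF10 end in DYW itself:
CRR22 (chr1:3791454-3791480, minus strand): gcctgttcgtgcggaGATTACTGGtga
MEF10 (chr3:3610095-3610121, plus strand): gtctgctcgtgcaaaGATTACTGGtga
OTP81 and MEF35 end in DFW, with phenylalanine in place of tyrosine:
OTP81 (chr2:12715074-12715100, plus strand): cagtgttcctgtaacGATTTCTGGtga
MEF35 (chr4:8103645-8103671, minus strand): aaatgttcctgcaatGACTTCTGGtaa
CRR4, MEF9 and SLO2 end without the tripeptide, and so does the gene named MEF14:
CRR4 (chr2:18694816-18694842, minus strand): agcattgaagtttccagtacattgtag
MEF9 (chr1:22997826-22997852, minus strand): tccagttgggttgactcctcaacgtaa
SLO2 (chr2:5673560-5673586, plus strand): aatcttctttgggacaacgccatgtaa
MEF14 (chr3:9850251-9850277, plus strand): gatactgctcatcttagattgttgtaa
Of the 44 members, 13 ended in DYW, 8 ended in another such tripeptide in at least 1 annotated isoform, and 23 in neither. Across all 27444 annotated protein-coding genes, 59 ended in DYW.

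One member does not carry the annotation its label implies. The locus AT3G26780 is named MEF14 in RefSeq, but its product is annotated as a phosphoglycerate mutase family protein. Its neighbour AT3G26782 (chromosome 3, 9850531 to 9852864) is annotated as a tetratricopeptide repeat-like protein and its coding sequence ends in DYW. The neighbour's counts were 226, 284 and 207 in WT, next to 185, 171 and 93 in hda9-1 and 143, 195 and 163 in pwr-2. Its log2 fold change was -0.38 (SE 0.11, adjusted p = 0.0205) in hda9-1 and -0.30 (SE 0.11, adjusted p = 0.0565) in pwr-2 (edgeR quasi-likelihood test, Benjamini-Hochberg adjustment). MEF14 is kept in the counts of members, and the counts called lower without it are given for the groups that hold it.

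The libraries held 6450661 to 11150773 counts, and the members together took 6328 to 14908 counts of a library. All 44 members were detected in every library, with 10 counts as the smallest value (MEF25 in replicate 3 of hda9-1, the smallest library), and all 44 passed the filter on low counts. HDA9 transcripts fell in hda9-1, from 36.6 to 39.2 CPM (counts normalised to library size) in the WT libraries to 6.45 to 7.40 CPM. PWR transcripts fell in pwr-2, from 133 to 145 CPM in WT to 43.5 to 57.2 CPM. Both values go with the genotype labels. Each gene also changed in the other mutant (edgeR quasi-likelihood test). HDA9 was lower in pwr-2 (log2 fold change -0.23, adjusted p = 0.0344), and PWR was higher in hda9-1 (log2 fold change 0.43, adjusted p = 0.00144). Over all 20171 tested genes, those of low expression lay lower in both mutants and those of high expression higher, which bears on members of low expression and is taken up with the plot against level.

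Levels per length, in CPM per kilobase of exon (RPKM), spanned 35.9-fold between the highest and lowest member over all 9 libraries. The plastid factors had a median of 14.4 RPKM in WT and the mitochondrial factors one of 7.44 RPKM. The highest level belonged to the gene named MEF14, with 46 ± 1.71, 49.8 ± 3.62 and 48.3 ± 1.56 RPKM (SD, n = 3) in WT, hda9-1 and pwr-2. AEF1, needed for editing of atpF in plastids and nad5 in mitochondria, followed with 38.1 ± 0.569, 41.5 ± 1.32 and 43.4 ± 0.345 RPKM, and CRR21, an ndhD factor, with 34.7 ± 0.747, 31.6 ± 2.52 and 32.7 ± 0.547 RPKM. These 3 genes did not overlap in WT. The lowest levels were those of MEF25, an editing factor for nad1, with 1.94 ± 0.348, 0.991 ± 0.171 and 1.09 ± 0.115 RPKM, of AHG11, a nad4 factor, with 1.99 ± 0.169, 1.10 ± 0.0822 and 0.983 ± 0.255 RPKM, and of MEF7, which acts on several transcripts, with 2.24 ± 0.348, 1.5 ± 0.153 and 1.45 ± 0.249 RPKM. In WT these 3 lay within their spread of each other. The coefficient of variation among the 3 replicates had a median over members of 7.75% in WT, 8.90% in hda9-1 and 8.46% in pwr-2.

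Transcripts of many editing factors were less abundant in both mutants than in WT. Of the 44 members, 27 fell and 0 rose in hda9-1, where 16.8% of all tested genes fell and 17.5% rose (edgeR quasi-likelihood test, Benjamini-Hochberg adjusted p under 0.05 over 20171 genes). In pwr-2, 25 fell and 1 rose, where 15.1% of all tested genes fell and 16.7% rose. The median log2 fold change of the members was -0.39 in both mutants, against -0.0039 and -0.0057 for all tested genes in hda9-1 and pwr-2. In hda9-1, DESeq2 also called 0 members higher, and 1 member, AEF1, was higher at an unadjusted p under 0.05 by edgeR. Of the 17 members not called in hda9-1, 15 had a fold change below 0, with a range of -0.68 to 0.12 on the log2 scale. In the 3 WT libraries the members summed to 1241, 1288 and 1223 CPM, in hda9-1 to 1047, 1092 and 1020.5 CPM, and in pwr-2 to 1118, 1098 and 1076 CPM. Every mutant library lay below every WT library in this sum. Member by member, all 3 hda9-1 libraries lay below all 3 WT libraries for 32 members, against 23.5% of all tested genes, and all 3 pwr-2 libraries for 29 members, against 24.7%.

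**Figure D1:**
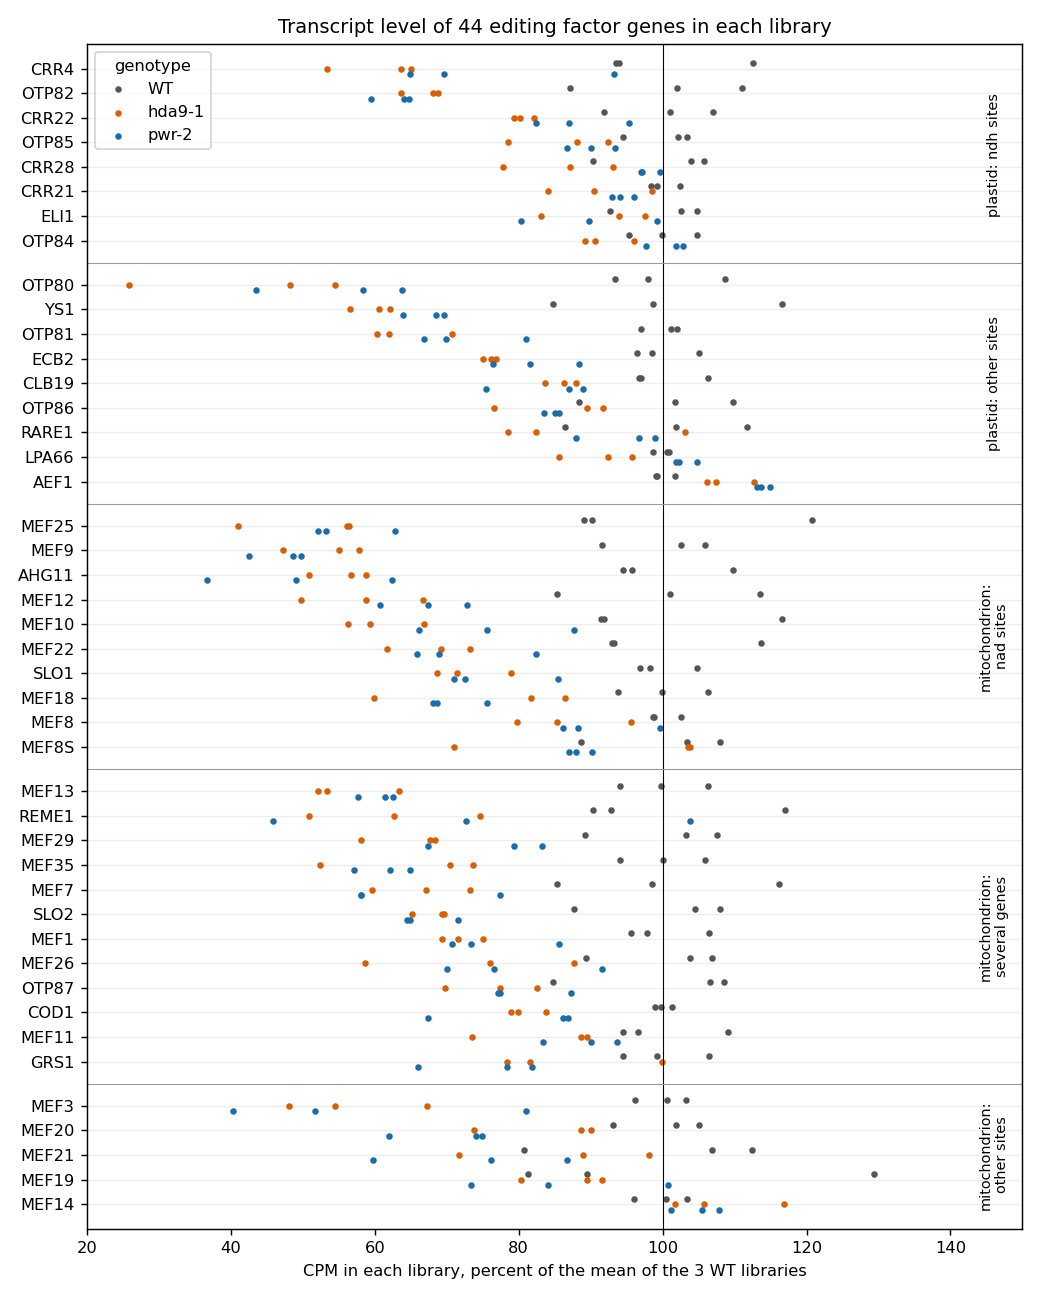
Normalised level (CPM) of each of the 44 genes in each of the 9 libraries, as a percentage of the mean of the 3 WT libraries (x axis), with genes in rows grouped by the kind of site they edit; each point is 1 library. For 32 genes all 3 hda9-1 points lie left of all 3 WT points, and for 29 genes all 3 pwr-2 points do.

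The size of these counts depended on the scaling and on single libraries. With loess offsets, which remove from each library any smooth trend with expression level, 17 members fell in hda9-1, where 14.7% of all genes fell, and 16 in pwr-2, where 12.3% fell. No member rose with loess offsets in either mutant, where 16.1% of all genes rose in hda9-1 and 14.5% in pwr-2. Nor was any member higher at an unadjusted p under 0.05. The members' median log2 fold change was then -0.27 in hda9-1 and -0.21 in pwr-2. With upper-quartile factors, 35 and 31 members fell, beside 23.9% and 22.6% of all genes. The upper-quartile factors also moved the split over all genes in hda9-1 from 3396 lower and 3535 higher to 4824 lower and 2368 higher, and in pwr-2 from 3051 and 3374 to 4552 and 2203. In pwr-2 the count was 14 without replicate 2 of WT and 15 without replicate 3 of pwr-2. DESeq2 called 21 members lower in hda9-1, beside 10.2% of the genes for which it gave an adjusted p, and 16 in pwr-2, beside 8.94%. It called 0 members higher in hda9-1, beside 13.9% of those genes, and 1 in pwr-2, beside 11.9%. With loess offsets, the count in hda9-1 was 10 without replicate 2 of WT. In pwr-2 with loess offsets, it was 8 without replicate 1 and 6 without replicate 2 of WT, and 10, 7 and 9 without replicates 1, 2 and 3 of pwr-2. The shares of all genes in the fits that left out 1 library are not given here. These counts therefore do not show whether the members still exceeded those shares. Under TMM factors, 18 of the 27 calls in hda9-1 and 12 of the 26 calls in pwr-2 held whichever of the 9 libraries was left out. Same-numbered WT and hda9-1 libraries deviated together from their group means, and the reason was not tested. In a fit of those 6 libraries with the replicate number as a block, 36 members fell, beside 23.4% of 20096 genes. It kept all 27 calls and added CRR21, CRR28, LPA66, MEF8, MEF11, MEF20, OTP86, RARE1 and REME1.

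Of the 8 factors whose known sites lie mainly in plastid ndh transcripts, 4 (50%) fell in hda9-1 and 1 (12.5%) in pwr-2. The shares over all tested genes were 16.8% and 15.1%, so in pwr-2 these factors did not exceed that share. OTP82 (AT1G08070, chromosome 1, 2514150 to 2516620), needed for sites in ndhB and ndhG, had 10.7, 13.7 and 12.5 CPM in WT, against 8.46, 7.84 and 8.39 in hda9-1 and 7.88, 7.32 and 7.97 in pwr-2. All 6 mutant libraries lay below the 3 WT libraries. In hda9-1 the log2 change from WT was -0.58 (SE 0.13, adjusted p = 0.00534), in pwr-2 it was -0.67 (SE 0.13, adjusted p = 0.00285). With loess offsets its values were -0.36 (adjusted p = 0.0591) and -0.47 (adjusted p = 0.023), so that the call in hda9-1 was lost. CRR4 (AT2G45350, chromosome 2, 18694816 to 18696691), which edits the start codon of ndhD, fell by 0.72 on the log2 scale in hda9-1 (SE 0.15, adjusted p = 0.00432), with 14.5, 14.4 and 17.4 CPM in WT and 8.25, 10.0 and 9.84 CPM in hda9-1. In pwr-2 it had 14.4, 10.8 and 10.0 CPM and was not called (log2 fold change -0.40, SE 0.15, adjusted p = 0.0613). CRR22, which acts on ndhB, ndhD and rpoB, changed in hda9-1 by -0.31 (SE 0.072, adjusted p = 0.0068), and OTP85, an ndhD factor, by -0.22 (SE 0.077, adjusted p = 0.0482). The call of OTP85 was lost in 8 of the 9 fits that left out 1 library and with loess offsets (adjusted p = 0.225). CRR21 (AT5G55740, chromosome 5, 22561849 to 22564587) had 93.5, 97.3 and 94.2 CPM in WT, against 79.9, 93.6 and 86 in hda9-1 and 88.3, 89.3 and 91.2 in pwr-2. The pwr-2 libraries lay below WT and the highest hda9-1 library within the WT range. CRR21 was not called in either mutant, at -0.14 (SE 0.058, adjusted p = 0.0871) in hda9-1 and -0.084 (SE 0.057, adjusted p = 0.275) in pwr-2. With loess offsets it was called lower in both, with -0.23 (adjusted p = 0.00716) and -0.18 (adjusted p = 0.0244). CRR28, ELI1 and OTP84 were not called in either mutant, and their log2 fold changes in hda9-1 were -0.21, -0.12 and -0.12. With loess offsets OTP84 was called lower in hda9-1, at -0.18 (adjusted p = 0.0227), and not in pwr-2, at -0.05 (adjusted p = 0.501). CRR28 shares 21.3% of its exon bases with a neighbouring gene.

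Among the 9 plastid factors with other targets, 5 fell in hda9-1, and in pwr-2 6 fell and 1 rose. Of all tested genes, 16.8% fell in hda9-1, and in pwr-2 15.1% fell and 16.7% rose. OTP81 (AT2G29760, chromosome 2, 12712879 to 12715852), required for editing within the rps12 intron, had 35.8, 37.7 and 37.4 CPM in WT, against 22.3, 26.2 and 22.9 in hda9-1 and 29.9, 25.8 and 24.7 in pwr-2. Both mutants lay wholly below WT. OTP81 changed in hda9-1 by a log2 value of -0.63 (SE 0.085, adjusted p = 0.000236), and in pwr-2 the change was -0.47 (SE 0.083, adjusted p = 0.0019). This factor of the DFW kind, whose last codons are shown above, had the smallest adjusted p of the members in hda9-1, and 12.4% of its exon bases overlap a neighbouring gene. ECB2 (AT1G15510, chromosome 1, 5329064 to 5331711), needed for accD and ndhF editing and for greening of young leaves, had 48.7, 51.9 and 47.7 CPM in WT, against 37.7, 38 and 37.1 in hda9-1 and 43.7, 40.3 and 37.8 in pwr-2. Again no mutant library reached the WT range. Against WT, the log2 difference came to -0.40 (SE 0.063, adjusted p = 0.000652) in hda9-1 and to -0.29 (SE 0.061, adjusted p = 0.00502) in pwr-2. YS1 (AT3G22690, chromosome 3, 8021229 to 8024594), a factor for rpoB, which encodes a subunit of the plastid RNA polymerase, had 17.9, 21.2 and 15.4 CPM in WT, against 11, 10.3 and 11.3 in hda9-1 and 12.4, 11.6 and 12.6 in pwr-2. The log2 fold change was -0.75 (SE 0.13, adjusted p = 0.000953) in hda9-1 and -0.58 (SE 0.12, adjusted p = 0.00497) in pwr-2. OTP80 (AT5G59200, chromosome 5, 23888793 to 23890431), a factor for rpl23, which encodes a ribosomal protein, had 8.82, 7.95 and 7.57 CPM in WT, against 3.91, 4.42 and 2.10 in hda9-1 and 5.17, 4.73 and 3.53 in pwr-2. In hda9-1 the log2 change from WT was -1.18 (SE 0.23, adjusted p = 0.00269), in pwr-2 it was -0.86 (SE 0.22, adjusted p = 0.0136). All 6 mutant libraries of YS1 and OTP80 lay below WT, and the change of OTP80 in hda9-1 was the largest of any member in either mutant. The call of OTP80 in pwr-2 was lost without replicate 1 of WT and without replicate 3 of pwr-2.

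CLB19, a factor for rpoA and clpP, fell in both mutants, with log2 fold changes of -0.22 (SE 0.071, adjusted p = 0.0324) and -0.26 (SE 0.071, adjusted p = 0.0176). OTP86, a factor for rps14, fell in pwr-2 (log2 fold change -0.25, SE 0.083, adjusted p = 0.0399). The calls of CLB19 were lost in 4 of the 9 fits without 1 library in hda9-1 and in 2 in pwr-2, that of OTP86 in 5, and with loess offsets that of CLB19 in hda9-1 (adjusted p = 0.0629). CLB19 shares 21.1% of its exon bases with a neighbour. LPA66, a psbF factor, and RARE1, an accD factor, were not called in either mutant. With loess offsets LPA66 was lower in hda9-1, at -0.20 (adjusted p = 0.00645), but not called in pwr-2, at -0.029 (adjusted p = 0.661). AEF1 (AT3G22150, chromosome 3, 7812861 to 7816011) was called higher in pwr-2, with 119, 119 and 122 CPM in WT, against 129, 128 and 135 in hda9-1 and 136, 137 and 138 in pwr-2. Every pwr-2 library lay above every WT library, and so did every hda9-1 library. AEF1 changed in hda9-1 by a log2 value of 0.12 (SE 0.046, adjusted p = 0.0608), and in pwr-2 the change was 0.19 (SE 0.045, adjusted p = 0.00942). AEF1 was the only member called higher, and its call was lost with loess offsets, where the log2 fold changes were -0.0076 (adjusted p = 0.915) in hda9-1 and 0.052 (adjusted p = 0.315) in pwr-2.

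**Figure D2:**
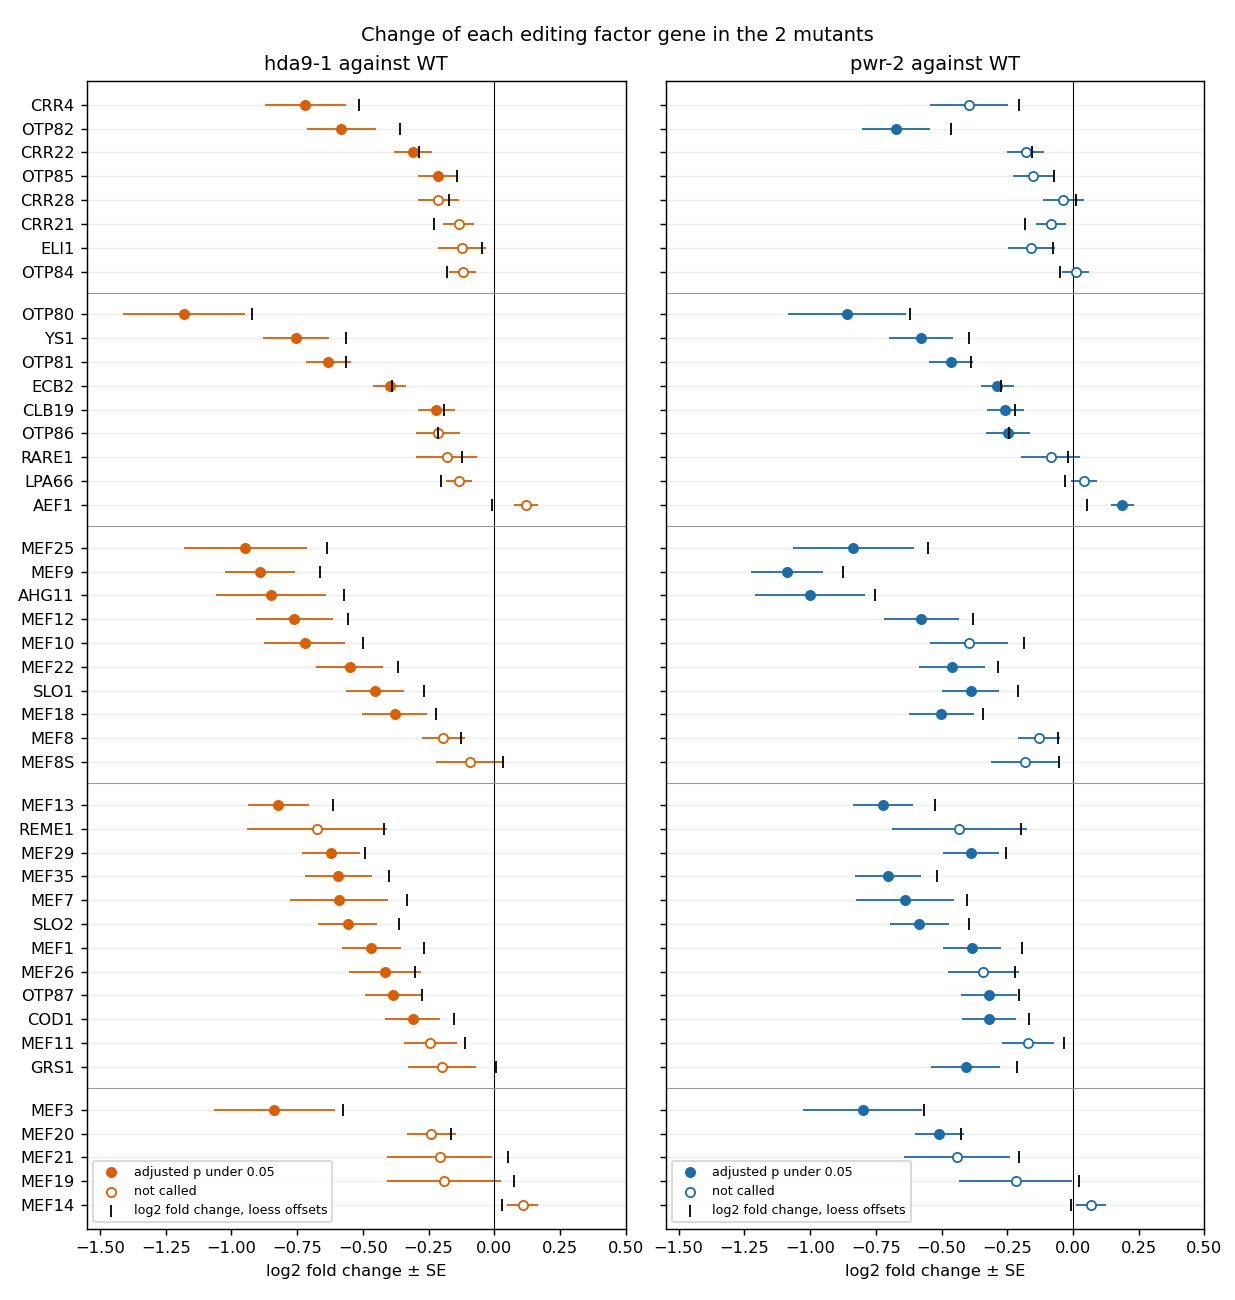
Log2 fold change of each gene (x axis) with its SE as a horizontal bar, in hda9-1 (left) and pwr-2 (right) against WT, 3 libraries a genotype; filled circles have an adjusted p under 0.05, open circles do not, and the black ticks give the fold change with loess offsets. In hda9-1 27 circles are filled, all left of 0; in pwr-2 25 are filled left of 0 and 1, AEF1, right of it.

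Of the 10 mitochondrial factors for nad transcripts, which encode subunits of complex I, 8 fell in hda9-1 and 7 in pwr-2, beside 16.8% and 15.1% of all tested genes. MEF9 (AT1G62260, chromosome 1, 22997755 to 22999829), needed for a site in nad7, had 11.6, 13 and 13.4 CPM in WT, against 7.30, 6.95 and 5.97 in hda9-1 and 6.28, 5.38 and 6.15 in pwr-2. The highest mutant library was well under the lowest WT library. Against WT, the log2 difference came to -0.89 (SE 0.13, adjusted p = 0.000494) in hda9-1 and to -1.09 (SE 0.14, adjusted p = 0.000199) in pwr-2. These calls held in every fit that left out 1 library and with loess offsets, at -0.66 (adjusted p = 0.00249) and -0.88 (adjusted p = 0.000652). MEF12 (AT3G09040, chromosome 3, 2760397 to 2764607), a nad5 factor, had 13, 17.3 and 15.4 CPM in WT, against 10.2, 8.94 and 7.58 in hda9-1 and 9.24, 11.1 and 10.3 in pwr-2. The log2 fold change was -0.76 (SE 0.15, adjusted p = 0.0023) in hda9-1 and -0.58 (SE 0.14, adjusted p = 0.0106) in pwr-2. The call in pwr-2 was lost without replicate 2 of WT, although no mutant library overlapped WT. AHG11 (AT2G44880, chromosome 2, 18505101 to 18508298), found through its abscisic acid hypersensitive mutant and needed for nad4 editing, had 5.78, 5.70 and 6.63 CPM in WT, against 3.07, 3.42 and 3.55 in hda9-1 and 2.22, 3.77 and 2.96 in pwr-2. In hda9-1 the log2 change from WT was -0.85 (SE 0.21, adjusted p = 0.00896), in pwr-2 it was -1.0 (SE 0.21, adjusted p = 0.00458). No mutant library reached the WT values, and with loess offsets the call was kept in pwr-2 (adjusted p = 0.0243) and lost in hda9-1 (adjusted p = 0.0644). MEF25 (AT3G25060, chromosome 3, 9128421 to 9130452) had 3.51, 4.75 and 3.55 CPM in WT, against 2.22, 2.21 and 1.61 in hda9-1 and 2.09, 2.47 and 2.05 in pwr-2. MEF25 changed in hda9-1 by a log2 value of -0.95 (SE 0.24, adjusted p = 0.00952), and in pwr-2 the change was -0.84 (SE 0.23, adjusted p = 0.0175). No mutant library overlapped WT, but at 10 to 55 counts a library depth was low, and both calls were lost without replicate 2 of WT, the one in pwr-2 also without replicate 1 or 3 of pwr-2. MEF10 (nad2) fell in hda9-1, by 0.72 on the log2 scale, and MEF18 (nad4), MEF22 (nad3) and SLO1 (nad4 and nad9) fell in both mutants, by 0.38 to 0.55. With loess offsets MEF10 in hda9-1 and MEF18 in pwr-2 were still called, and MEF18 in hda9-1, MEF22 and SLO1 were not. MEF22 shares 83.9% of its exon bases with AT3G12760, whose own log2 fold changes were 0.10 and -0.0028 with neither called. MEF8, which acts on nad5 and nad6, and its paralog MEF8S were not called.

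The 12 mitochondrial factors with sites in several kinds of transcript held 9 that fell in hda9-1 and 9 that fell in pwr-2. Over all tested genes the shares were 16.8% and 15.1%. MEF13 (AT3G02330, chromosome 3, 473774 to 476662), which acts on many sites, had 15.1, 16 and 17 CPM in WT, against 8.36, 10.2 and 8.55 in hda9-1 and 9.85, 9.25 and 10.0 in pwr-2. Against WT, the log2 difference came to -0.82 (SE 0.12, adjusted p = 0.000321) in hda9-1 and to -0.72 (SE 0.11, adjusted p = 0.000906) in pwr-2. Both mutants lay wholly below WT, and the calls held with loess offsets, at -0.62 (adjusted p = 0.00301) and -0.53 (adjusted p = 0.00786). SLO2 (AT2G13600, chromosome 2, 5671396 to 5673622), a factor without a DYW end that is needed for sites in nad and mttB transcripts, had 17.1, 17.6 and 14.3 CPM in WT, against 11.3, 11.4 and 10.6 in hda9-1 and 11.7, 10.5 and 10.6 in pwr-2. The log2 fold change was -0.56 (SE 0.11, adjusted p = 0.00303) in hda9-1 and -0.58 (SE 0.11, adjusted p = 0.00274) in pwr-2. MEF35 (AT4G14050, chromosome 4, 8103521 to 8105637) had 17.3, 18.2 and 16.2 CPM in WT, against 12.7, 12.1 and 9.03 in hda9-1 and 9.85, 11.2 and 10.7 in pwr-2. In hda9-1 the log2 change from WT was -0.59 (SE 0.13, adjusted p = 0.00419), in pwr-2 it was -0.70 (SE 0.13, adjusted p = 0.00198). Neither gene had a mutant library within the WT range, and both genes kept both calls with loess offsets. MEF29 (AT4G30700, chromosome 4, 14962493 to 14965023) had 26.5, 25.5 and 22 CPM in WT, against 16.7, 16.9 and 14.4 in hda9-1 and 19.6, 20.5 and 16.6 in pwr-2. MEF29 changed in hda9-1 by a log2 value of -0.62 (SE 0.11, adjusted p = 0.00134), and in pwr-2 the change was -0.39 (SE 0.11, adjusted p = 0.0172). Its pwr-2 libraries also lay below WT, but that call was lost without replicate 1 or 2 of WT, without replicate 3 of pwr-2, and with loess offsets. MEF7 (AT5G09950, chromosome 5, 3102195 to 3105950) had 7.11, 8.38 and 6.15 CPM in WT, against 5.29, 4.31 and 4.84 in hda9-1 and 4.19, 4.20 and 5.58 in pwr-2. Against WT, the log2 difference came to -0.59 (SE 0.19, adjusted p = 0.0296) in hda9-1 and to -0.64 (SE 0.19, adjusted p = 0.0225) in pwr-2. With loess offsets neither call held, and each was lost in 4 of the 9 fits that left out 1 library.

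MEF1 (rps4, nad2 and nad7), OTP87 (nad7 and atp1) and COD1 (cox2 and nad4) fell in both mutants by 0.31 to 0.47 on the log2 scale, MEF26 (cox3 and nad4) in hda9-1 (log2 fold change -0.42, SE 0.14, adjusted p = 0.0357) and GRS1, named for its slow growth mutant, in pwr-2 (log2 fold change -0.41, SE 0.13, adjusted p = 0.0333). None of these 5 kept a call with loess offsets, and apart from MEF1 in hda9-1 each call was lost in 2 to 5 of the 9 fits without 1 library. MEF11 and REME1 were not called, REME1 with a wide spread of 3.19 to 7.21 CPM in pwr-2. Of the 5 factors with other mitochondrial targets, or 4 without MEF14, 1 fell in hda9-1 and 2 in pwr-2. With MEF14 these are 20% and 40%, beside 16.8% and 15.1% of all tested genes. MEF3, which edits atp4, fell in both, with log2 fold changes of -0.84 (SE 0.23, adjusted p = 0.0154) and -0.80 (SE 0.23, adjusted p = 0.0198), but in neither with loess offsets. MEF20 (AT3G18970, chromosome 3, 6543318 to 6545432), a factor for rps4, had 34.4, 33.4 and 30.5 CPM in WT, against 29.5, 29 and 24.2 in hda9-1 and 20.3, 24.5 and 24.3 in pwr-2. Both mutants lay below WT, and the lowest hda9-1 library lay within the pwr-2 range. The log2 fold change was -0.24 (SE 0.093, adjusted p = 0.0657) in hda9-1 and -0.51 (SE 0.095, adjusted p = 0.00243) in pwr-2. MEF19 and MEF21 were not called, and all exon bases of MEF19 overlap AT3G05230 on the opposite strand. MEF14 had 75.5, 70.1 and 73.4 CPM in WT, against 74.2, 77.2 and 85.3 in hda9-1 and 78.7, 76.9 and 73.8 in pwr-2. Its groups overlapped, and it was not called, with log2 fold changes of 0.11 (SE 0.058, adjusted p = 0.175) and 0.068 (SE 0.058, adjusted p = 0.385) that became 0.031 (adjusted p = 0.68) and -0.0094 (adjusted p = 0.909) with loess offsets. Without this gene the counts stood at 27 and 25 lower of 43. Without the 7 members that share at least 10% of their exon bases with another gene, they were 24 and 21 of 37.

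The mutants were compared with the same WT libraries, so shared calls are not independent. Of the members, 22 fell in both mutants, 5 in hda9-1 alone (CRR4, CRR22, MEF10, MEF26 and OTP85), 3 in pwr-2 alone (GRS1, MEF20 and OTP86) and 14 in neither. The share of all genes that fell in both is not given here, so these overlaps are not read as particular to the members. Alone means that only 1 mutant passed the cutoff. In pwr-2 the log2 changes of CRR4, CRR22, MEF10, MEF26 and OTP85 were -0.40, -0.18, -0.39, -0.34 and -0.15. Their edgeR adjusted p were 0.0613, 0.07, 0.0618, 0.0741 and 0.145. In hda9-1, GRS1, MEF20 and OTP86 had -0.20, -0.24 and -0.21 (edgeR adjusted p 0.257, 0.0657 and 0.0647). Called with both TMM factors and loess offsets were 14 in hda9-1 and 15 in pwr-2, and 9 of them in both mutants: ECB2, MEF9, MEF12, MEF13, MEF35, OTP80, OTP81, SLO2 and YS1. Compared directly, 0 members differed between pwr-2 and hda9-1 by edgeR, where 0.362% of all genes were higher and 0.0942% lower in pwr-2, and 0 by DESeq2, where 0.649% were higher and 0.208% lower. With loess offsets, where 0.575% were higher and 0.208% lower, the count was also 0. At an unadjusted p under 0.05 there were 4 of the 44 with TMM factors, beside 2736 of all 20171 tested genes. The members thus did not exceed the share of all genes. LPA66 was higher in pwr-2 by 0.18 (SE 0.051, adjusted p = 0.15), OTP84 by 0.13 (SE 0.054, adjusted p = 0.313) and CRR28 by 0.18 (SE 0.08, adjusted p = 0.365) on the log2 scale, and MEF20 had a difference of -0.27 (SE 0.10, adjusted p = 0.263). LPA66 (AT5G48910, chromosome 5, 19832785 to 19835148) had 73.5, 74.9 and 75.1 CPM in WT, against 63.8, 71.3 and 68.9 in hda9-1 and 76.2, 78.1 and 75.9 in pwr-2. Its hda9-1 libraries lay below WT, and its pwr-2 libraries above WT. OTP84 had 64.6, 71 and 67.8 CPM in WT, against 60.5, 65.1 and 61.4 in hda9-1 and 69.1, 66.3 and 69.7 in pwr-2. CRR28 had 37.4, 38.1 and 32.5 CPM in WT, against 31.4, 33.6 and 28.1 in hda9-1 and 35, 35 and 35.9 in pwr-2. In both genes the hda9-1 range lay below that of pwr-2 and overlapped that of WT. CRR4, called in hda9-1 alone, differed between the mutants by 0.32 (SE 0.16, adjusted p = 0.409), and MEF10 by 0.33 (SE 0.16, adjusted p = 0.406). Over all 44 members the difference ranged from -0.27 to 0.33 with a median of 0.065.

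By organelle, the plastid factors summed to 742, 787 and 751 CPM in WT, 650.3, 691 and 657 CPM in hda9-1, and 724, 707 and 698 CPM in pwr-2. The mitochondrial factors summed to 499, 501 and 472 CPM in WT, 397, 400.4 and 363 CPM in hda9-1, and 394, 391 and 378 CPM in pwr-2. Each mutant library was below each WT library in both sums. Of the 17 plastid factors 9 fell in hda9-1 and 7 in pwr-2, with median log2 fold changes of -0.22 and -0.18. Of the 27 mitochondrial factors 18 fell in each mutant, with medians of -0.47 and -0.43. The shares over all tested genes were 16.8% in hda9-1 and 15.1% in pwr-2. With loess offsets the counts were 9 and 8 of the plastid factors and 8 and 8 of the mitochondrial factors, beside 14.7% and 12.3% of all genes. The medians were then -0.21 and -0.18 for the plastid factors and -0.30 and -0.22 for the mitochondrial factors. The difference between the organelles was not tested. By coding end, 6 of 13 members with DYW fell in hda9-1 and 4 in pwr-2, 6 and 5 of the 8 with another such tripeptide, and 15 and 16 of the 23 without, where 16.8% and 15.1% of all tested genes fell. With loess offsets these counts were 5 and 1 with DYW, 3 and 4 with another tripeptide, and 9 and 11 without, where 14.7% and 12.3% of all genes fell. The differences between the kinds of end were not tested. Without MEF14, the same numbers fell of 26 mitochondrial factors and of 22 members without the tripeptide.

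The plot against level shows the members beside all tested genes. In 5 classes of equal size from the lowest to the highest mean level, all genes in hda9-1 had median log2 fold changes of -0.26, -0.14, -0.033, 0.047 and 0.12. In pwr-2 these were -0.28, -0.15, -0.044, 0.042 and 0.12. The classes held 11, 17, 11, 3 and 2 members, so that most members had low or middle expression. In the first 3 classes the members' medians came to -0.72, -0.47 and -0.22 for hda9-1 and -0.67, -0.40 and -0.18 for pwr-2, below those of all genes in each of these classes. In hda9-1, 8, 14 and 5 members of these classes fell, where 21.7%, 26.1% and 20.5% of all genes of the class did. In pwr-2, 7, 13 and 5 members fell, where 20.7%, 25.9% and 18% of all genes did. Neither of the 2 highest classes, with 3 and 2 members, held a member called lower with TMM factors. Of all genes in these classes, 12.0% and 3.97% fell in hda9-1 and 9.3% and 1.71% in pwr-2. With loess offsets, 2 and 1 of these members fell in hda9-1, beside 16.9% and 15.7% of all genes. In pwr-2 these counts were 0 and 1, beside 13.2% and 12.2%. The part of the trend with level in the members' values was not tested beyond the loess offsets.

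**Figure D3:**
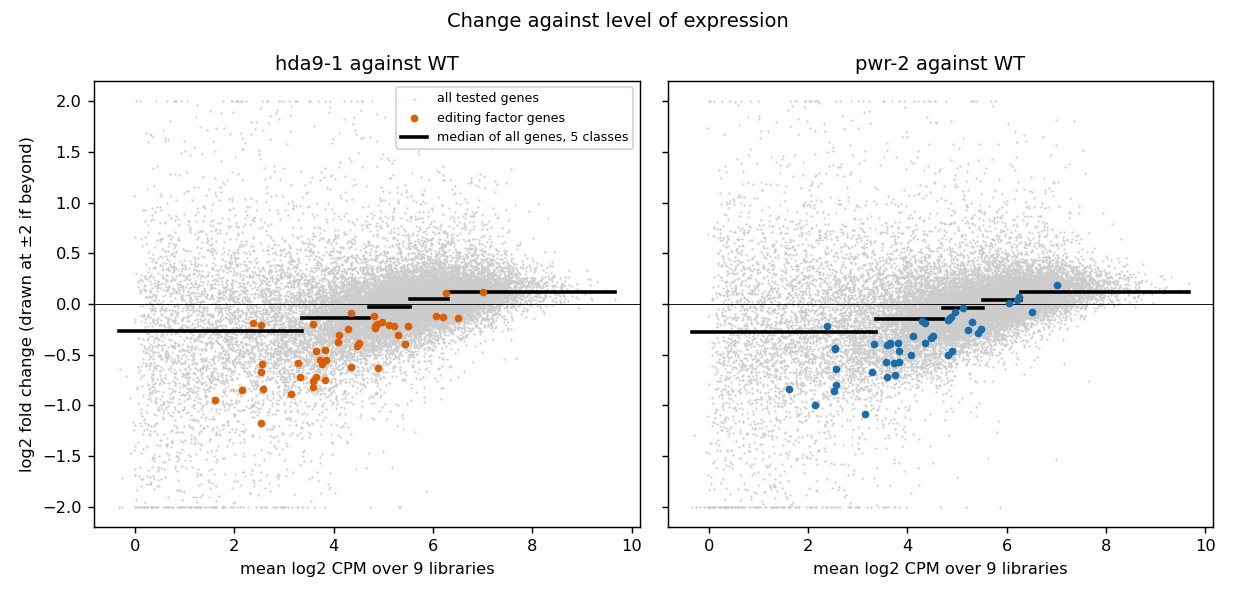
Log2 fold change (y axis) against mean log2 CPM over the 9 libraries (x axis) for all 20171 tested genes (grey) and the 44 editing factor genes (coloured), in hda9-1 (left) and pwr-2 (right); black bars give the median of all genes in 5 classes of level. The grey medians run from -0.26 to 0.12 in hda9-1 and from -0.28 to 0.12 in pwr-2, and in the 3 lower classes the members' medians, -0.72, -0.47 and -0.22 in hda9-1, lie below them.

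The members were set beside 2 related groups of genes that overlap. Of 481 other genes annotated as PPR proteins 418 were tested. In hda9-1, 129 (30.9%) fell and 42 rose, and in pwr-2 113 (27%) fell and 42 rose, with medians of -0.10 and -0.091. Of all tested genes, 16.8% fell and 17.5% rose in hda9-1, and 15.1% fell and 16.7% rose in pwr-2. With loess offsets 96 (23%) and 79 (18.9%) of the 418 fell, beside 14.7% and 12.3% of all genes. Of the genes that end in DYW and are not members, 44 were tested, of which 31 (70.5%) fell in hda9-1 and 28 (63.6%) in pwr-2, with medians of -0.52 and -0.48, and 23 and 19 fell with loess offsets. Of these 44, 21 are also among the other PPR genes, and DYW1, DYW2 and the neighbour AT3G26782 are described separately. The 397 tested PPR genes that do not end in DYW had 112 (28.2%) lower in hda9-1 and 98 (24.7%) in pwr-2. The shares of the named factors, 61.4% and 56.8%, lay between those of the 2 groups, and the differences were not tested.

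**Figure D4:**
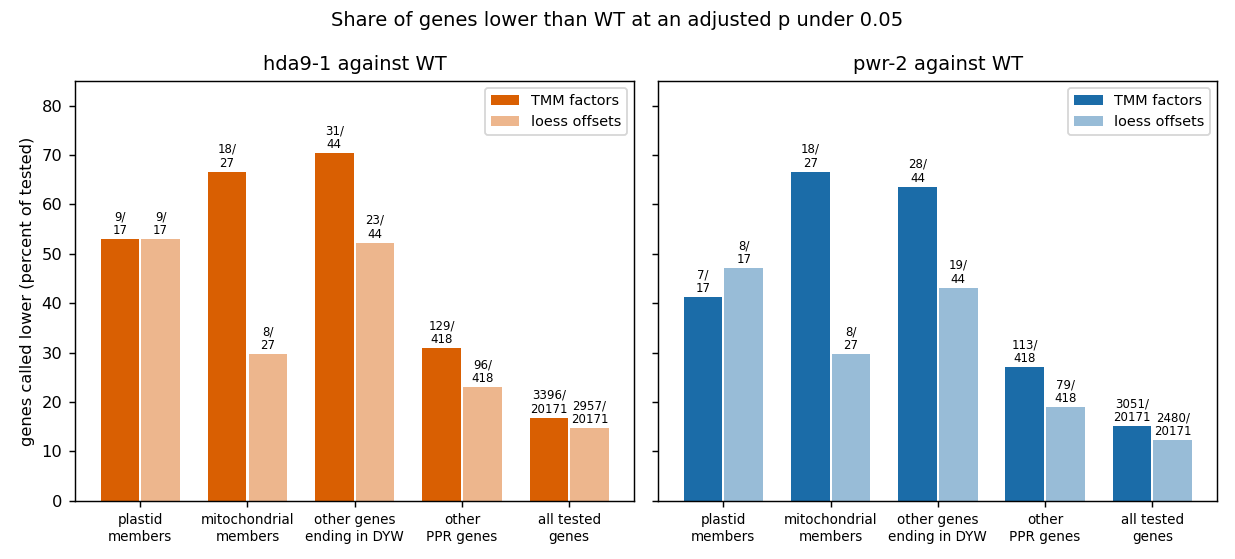
Percentage of tested genes called lower than WT (y axis) in 5 sets of genes, in hda9-1 (left) and pwr-2 (right), with TMM factors (dark bars) and loess offsets (pale bars); the numbers above the bars are genes lower over genes tested. With TMM factors 66.7% of the mitochondrial members were lower in each mutant, and with loess offsets 29.6%. Of all tested genes, 16.8% in hda9-1 and 15.1% in pwr-2 were lower with TMM factors, and 14.7% and 12.3% with loess offsets.

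Of 24 other nuclear genes of the editing machinery, 7 fell and 1 rose in hda9-1, and 2 fell and 0 rose in pwr-2. The shares that fell, 29.2% and 8.33%, stand beside 16.8% and 15.1% of all tested genes. At an unadjusted p under 0.05, 3 were higher in pwr-2 by edgeR and 1 by DESeq2. In either direction, 8762 of 20171 tested genes had such a p in pwr-2 by edgeR, and 7050 of 25024 genes by DESeq2. In hda9-1 these numbers were 9077 and 7354. The unadjusted counts given here are therefore not read as particular to these genes. DESeq2 called MORF4, OZ2 and DYW1 lower and 0 genes higher in hda9-1 (2 higher at an unadjusted p under 0.05), and 0 genes in pwr-2 (2 lower and 1 higher), so that the other calls given here for these genes are those of edgeR alone. Among the 9 MORF genes, whose products bind PPR proteins and are needed at many sites, 3 fell in hda9-1. These were MORF1 (log2 fold change -0.23, SE 0.067, adjusted p = 0.0223), MORF4 (log2 fold change -0.42, SE 0.12, adjusted p = 0.0163) and MORF7 (log2 fold change -0.43, SE 0.14, adjusted p = 0.0347). In pwr-2, 0 MORF genes were called, and 2 had an unadjusted p under 0.05 by edgeR and 0 by DESeq2. Among the 6 ORRM genes, which encode RNA recognition motif proteins, ORRM3 fell in hda9-1 (log2 fold change -0.31, SE 0.079, adjusted p = 0.0108) and ORRM1 rose (log2 fold change 0.14, SE 0.05, adjusted p = 0.0433). In pwr-2, 0 ORRM genes were called, and 1 had an unadjusted p under 0.05 by edgeR and 0 by DESeq2. The zinc finger gene OZ2 fell in both mutants, with log2 fold changes of -0.59 (SE 0.12, adjusted p = 0.00265) and -0.38 (SE 0.11, adjusted p = 0.0251), while OZ1 was not called. DYW1, which supplies the DYW domain to CRR4, also fell in both, by log2 fold changes of -0.45 (SE 0.071, adjusted p = 0.000638) and -0.25 (SE 0.069, adjusted p = 0.0167). NUWA, a PPR partner of DYW2, fell in hda9-1 (log2 fold change -0.25, SE 0.087, adjusted p = 0.0465). Of CP31A, CP31B, PPO1 and ISE2, 0 were called in either mutant by edgeR or DESeq2, and 1 had an unadjusted p under 0.05 in each. With loess offsets MORF4, MORF7 and ORRM1 in hda9-1 and OZ2 and DYW1 in pwr-2 lost their calls, while DYW2 and ISE2 in hda9-1 and CP31B and ISE2 in pwr-2 were called lower.

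In gene structure, 27 of the 44 members (61.4%) had a single exon, against 35.8% of the other PPR genes and 18.9% of all protein-coding genes. Site II and the telo box, 2 promoter motifs, were searched on both strands from 250 bases before to 50 after the annotated start, as TGGGCC or TGGGCT and as AAACCCTAA, the first pair differing in the last base. Site II was found in 15 members (34.1%), against 27.8% of other PPR genes and 21.7% of all genes, and the telo box in 1 member (2.27%), against 3.61% of all genes. The promoters printed here belong to the members with the smallest adjusted p in hda9-1 among those that fell in both mutants and hold site II, which is in capitals on either strand, in TAIR10.1:
OTP80 (chr5:23890382-23890681, minus strand): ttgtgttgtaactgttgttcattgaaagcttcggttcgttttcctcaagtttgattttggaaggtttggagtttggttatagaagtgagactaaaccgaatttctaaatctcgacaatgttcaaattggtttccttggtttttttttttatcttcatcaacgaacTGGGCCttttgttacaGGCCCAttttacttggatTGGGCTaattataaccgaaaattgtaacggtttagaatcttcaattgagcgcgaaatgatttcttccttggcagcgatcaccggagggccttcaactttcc
OTP82 (chr1:2516571-2516870, minus strand): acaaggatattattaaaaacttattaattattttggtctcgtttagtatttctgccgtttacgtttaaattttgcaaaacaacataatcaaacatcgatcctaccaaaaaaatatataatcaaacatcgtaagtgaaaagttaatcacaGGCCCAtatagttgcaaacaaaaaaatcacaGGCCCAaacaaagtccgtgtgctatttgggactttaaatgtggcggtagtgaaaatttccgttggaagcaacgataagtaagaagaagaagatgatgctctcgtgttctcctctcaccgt
A match of letters describes these windows and does not show that a factor binds there.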

How the data were processed

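PolyA RNA of 9 seedling libraries was measured. The authors' deposited table holds raw whole-number counts per gene, 1 column a library. HISAT2 and TAIR10 are named in the submitters' processing notes, and the libraries were strand-specific, per the labels' protocols. The counting tool, its strand setting and its handling of duplicate and multiply mapped reads are not given in the sources used here, so reads of overlapping genes may be misassigned. The most abundant gene of a library had 701 to 917 CPM.

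The main test was edgeR's quasi-likelihood F test (version 4.0.16, R 4.3.3) on counts scaled by TMM, after filterByExpr had left 20171 genes, in 1 genotype model over the 9 libraries. Benjamini-Hochberg adjustment ran over all tested genes, and a gene was called at an adjusted p under 0.05. Each SE was derived as the size of the log2 fold change over the root of its F value. CPM use TMM-scaled totals, and RPKM divide CPM by exon length in RefSeq TAIR10.1, which also gave positions. Alternatives were upper-quartile factors, loess offsets (limma 3.58.1, span 0.3), DESeq2 1.42.0, no filter, a replicate block, only the groups compared, and leaving out each library. The steps were tested on simulated data. Same-numbered libraries of WT and hda9-1 deviated together (correlations of deviations from the group means of 0.359, 0.447 and 0.455 across genes), while those of WT and pwr-2 (-0.123, -0.014 and -0.128) and of hda9-1 and pwr-2 (-0.221, -0.189 and -0.241) did not. Replicates 2, 3 and 1 of pwr-2 had 0.169, 0.167 and 0.226 with replicates 1, 2 and 3 of WT. With those of hda9-1 they had 0.201, 0.231 and 0.226. The labels say nothing of a shared batch. Values in every library are given for up to 8 called members with the smallest adjusted p in each mutant, and for the 3 highest and 3 lowest per length. CRR4, CRR28, LPA66 and OTP84 were added after their values were seen. The members and lists were chosen with earlier results of these data known.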

Additional observations from a re-analysis of the deposited data

How the results depend on the processing

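Counts of members called lower ranged over the fits that left out 1 library from 19 to 27 in hda9-1 and from 14 to 26 in pwr-2, and the 1 member called higher in pwr-2 was called in each of them. With loess offsets, 17 and 16 members were lower in hda9-1 and pwr-2 and 0 higher in pwr-2, also 0 with the replicate block added. With loess offsets and 1 library left out, a combination chosen after seeing the data, the counts ranged from 10 to 18 in hda9-1 (10, 13, 15, 15, 16, 17 and 17 among those over 1.5 times under the main count) and from 6 to 16 in pwr-2 (6, 7, 8, 9, 10, 13, 14, 16 and 16), with 0 higher in pwr-2. For the fits without 1 library, the shares of all genes are not given here. DESeq2 called 21 and 16 lower. The cause of these changes was not tested. The replicate block gave 28 lower in hda9-1 and 24 in pwr-2 in the fit of all 9 libraries, and the fit of WT and hda9-1 alone, also added after seeing the data, gave 36. With loess offsets the block moved the counts from 17 to 18 in hda9-1 and from 16 to 17 in pwr-2. Upper-quartile factors gave 35 and 31, no filter 26 and 25, and fitting only the groups compared 26 and 26. Between the mutants the count was 0 in every setting run. No named fold change changed sign in any setting in a comparison where its member was called. In a comparison where it was not called, that of AEF1 in hda9-1 went from 0.12 to -0.0076 with loess offsets. Depth limits the members of lowest expression, such as MEF25 with 10 to 55 counts a library.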
